A study of Mus musculus with 8 samples.

Results

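Hair follicle stem cells (HFSCs) and epidermal stem cells (EpdSCs) of wild-type mice were compared through the 4 bulk RNA-seq libraries of the series that came from WT dorsal skin in telogen, out of 8 libraries in all. The comparison takes 2 libraries of WT HFSCs, sorted as CD34+ CD49f+ Sca-1- cells from mice labelled 2 months old, and 2 libraries of WT EpdSCs, labelled epidermal progenitor cells and sorted as CD34- CD49f+ Sca-1+ cells from mice labelled 6 months old. The WT animals were C57BL/6J, received no treatment, and served in the study as controls for Msx2 knockout mice, whose 4 libraries were not used here. The 2 cell types were deposited as separate tables, so genes were joined by symbol, the nuclear protein-coding genes found in both tables were kept, and each library was expressed in CPM, its counts per 1000000 counts over these genes. Of 23861 genes in the HFSC table and 16231 in the EpdSC table, 15337 were in both and 12011 of those were nuclear and protein coding. Cell type, age, sort gate and deposited table change together between the groups, so a difference between the cell types and a difference between these ages cannot be told apart.

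HFSCs rest in the bulge of the hair follicle below the sebaceous gland and are known for long quiescence, broken when signals from the dermal papilla overcome BMP inhibition and raise Wnt signalling. EpdSCs line the basement membrane of the interfollicular epidermis, divide to maintain it, and send daughters upward that switch from basal to suprabasal keratins and then build the cornified envelope. As cell types, both are basal keratinocytes anchored by hemidesmosomes and integrins, and the purity of the sorted libraries was not tested.

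The libraries were shallow for HFSCs and deeper for EpdSCs. The counts that fell on the shared genes were 3.23 M and 1.47 M (M, 1000000 counts) in HFSC replicates 1 and 2, and 9.25 M and 10.5 M in EpdSC replicates 1 and 2. At these depths 3 counts correspond to 0.929 and 2.05 CPM in the HFSC libraries and to 0.324 and 0.285 CPM in the EpdSC libraries. Mitochondrial ribosomal RNA took 8.94% and 36.3% of all counts in HFSCs and 23.5% and 16.4% in EpdSCs. EpdSC replicate 1 stood apart in the Y-linked genes, for example Ddx3y with 0 and 60.4 CPM in EpdSC replicates 1 and 2 against 34.99 and 96.9 CPM in the HFSC replicates. Here and throughout, pairs of values are replicates 1 and 2, with HFSCs given before EpdSCs unless stated. Counts of called genes in a list that moved by more than 1.5 times when 1 library was left out are given with and without that library. The labels do not say whether replicates came from separate animals, so p-values measure only the spread between these libraries. They give no sex either, although the 4 Y-linked genes summed to 0.108 and 200 CPM in EpdSC replicates 1 and 2. The part of sex in the differences between libraries was not tested.

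A total of 11900 genes reached 1 CPM in at least 2 libraries and were tested with limma on log2(CPM + 1). Calls required a p under 0.05 after Benjamini-Hochberg adjustment together with a fold change over 2. Fold changes are given as HFSC minus EpdSC on the log2(CPM + 1) scale, which understates the change of low genes. By this rule 3410 genes were called, 28.7% of those tested, of which 1567 (13.2%) were higher and 1843 (15.5%) lower in HFSCs. These shares are the background for the counts called in every list below. The median log2 fold change over all genes tested was -0.03. Both HFSC libraries lay above both EpdSC libraries for 4178 genes, 35.1% of those tested, and below both for 4531, 38.1%. Groups without overlap were thus common, and lack of overlap in named genes is given below as description only. Without EpdSC replicate 1 the called genes numbered 1048 higher and 1126 lower. Pearson correlations across the 11900 genes, which are not independent replicates, were 0.956 between the HFSC libraries, 0.973 between the EpdSC libraries and 0.729 to 0.774 between cell types. For 2 against 2 libraries the smallest two-sided p that exact permutation of 1 gene's values allows is 0.333, and every adjusted p given here comes from limma across all genes. In bulk RNA, fewer cells of a type and less RNA per cell cannot be told apart.

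**Figure D1:**
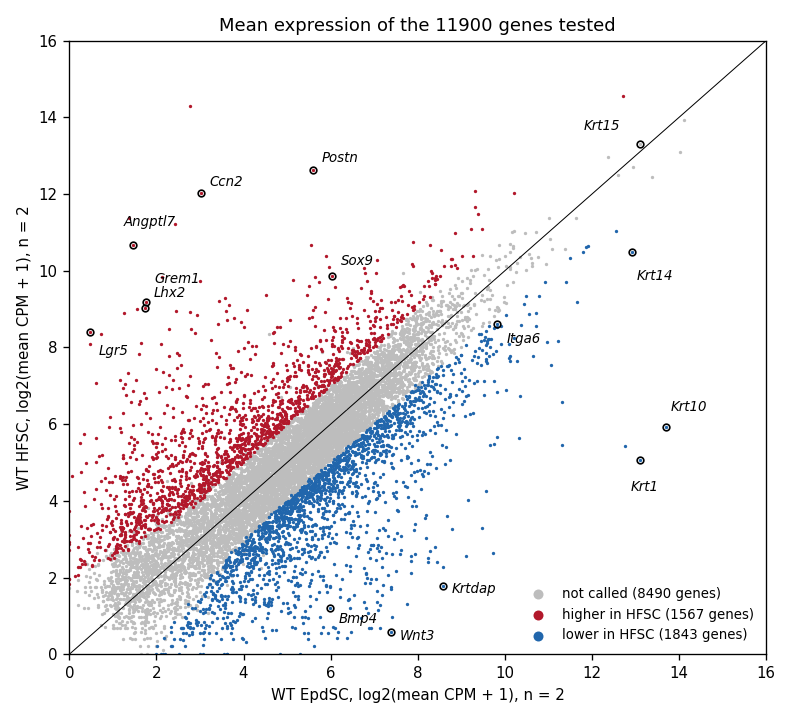
Mean expression of the 11900 genes tested, as log2(mean CPM + 1), in WT EpdSCs on the horizontal axis and WT HFSCs on the vertical axis, with 2 libraries per group and the line of equal expression. Red marks the 1567 genes called higher in HFSCs and blue the 1843 called lower. Krt15 lies near the line, while Postn, Ccn2 and Lhx2 lie far above it and Krt1, Krt10 and Wnt3 far below.

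The genes behind the sort could be checked only in part. Cd34, which encodes the surface marker that defines the HFSC gate, stood at 1139 and 921 CPM in the HFSC libraries and had no row in the EpdSC table. Ly6a, which encodes the Sca-1 antigen of the EpdSC gate, stood at 47.2 and 54.4 CPM in the EpdSC libraries and had no row in the HFSC table. Each had values for 1 cell type only, so neither could be compared between the gates or tested. A missing row gives no level. Itga6, which encodes CD49f, was used in both gates and had 385 and 399.6 CPM in HFSCs and 822 and 996 CPM in EpdSCs (log2 fold change -1.20, standard error (SE) 0.17, adjusted p = 0.000618). Its transcript was therefore lower in the HFSC libraries, with no overlap between groups, a separation in this direction that 38.1% of all genes tested had.

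Krt15, a keratin of the bulge and of the basal layer, did not separate the populations. It had 10902 and 9383 CPM in HFSCs and 7984 and 9623 CPM in EpdSCs, so that the groups overlapped (log2 fold change 0.21, SE 0.30, adjusted p = 0.618). The LIM homeobox factor Lhx2, which maintains HFSC identity, had 574 and 462 CPM in HFSCs and 0.865 and 3.79 CPM in EpdSCs (log2 fold change 7.43, SE 0.39, adjusted p = 2.46e-06). The suprabasal keratins ran the other way. Krt1, on chromosome 15 from 101845426 to 101850794, had 47.4 and 17.1 CPM in HFSCs and 9926 and 7603 CPM in EpdSCs (log2 fold change -8.20, SE 0.38, adjusted p = 1.49e-06). Its partner Krt10, on chromosome 11 from 99385254 to 99389364, had 80.8 and 39.4 CPM in HFSCs and 15851 and 10793 CPM in EpdSCs (log2 fold change -7.83, SE 0.32, adjusted p = 7.58e-07). The EpdSC libraries, sorted for basal stem cell antigens, thus held both suprabasal keratins more than the HFSC libraries did, and the share of suprabasal cells in the sort was not tested.

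Among the basal keratins, Krt14 was lower in HFSCs, with 1481 and 1409.5 CPM against 7176 and 8415 CPM in EpdSCs (log2 fold change -2.43, adjusted p = 5.26e-05). Krt5, its dimer partner, had 5722 and 5376 CPM in HFSCs and 9733 and 11528 CPM in EpdSCs, a log2 fold change of -0.93 that stayed under the fold threshold. Trp63, which encodes the p63 regulator of stratified epithelia, had 986 and 1100.3 CPM in HFSCs and 1365 and 1507 CPM in EpdSCs and was not called (adjusted p = 0.0710). The pair of basal keratins therefore differed in how far they separated the groups. Within the EpdSC libraries, the suprabasal keratin Krt10 exceeded Krt14 in both replicates and Krt5 in replicate 1 only. Msx2, the gene the study deleted in its other animals, had 16.4 and 4.78 CPM in HFSCs and 5.84 and 8.54 CPM in EpdSCs, with overlapping groups (log2 fold change 0.31, adjusted p = 0.675).

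**Figure D2:**
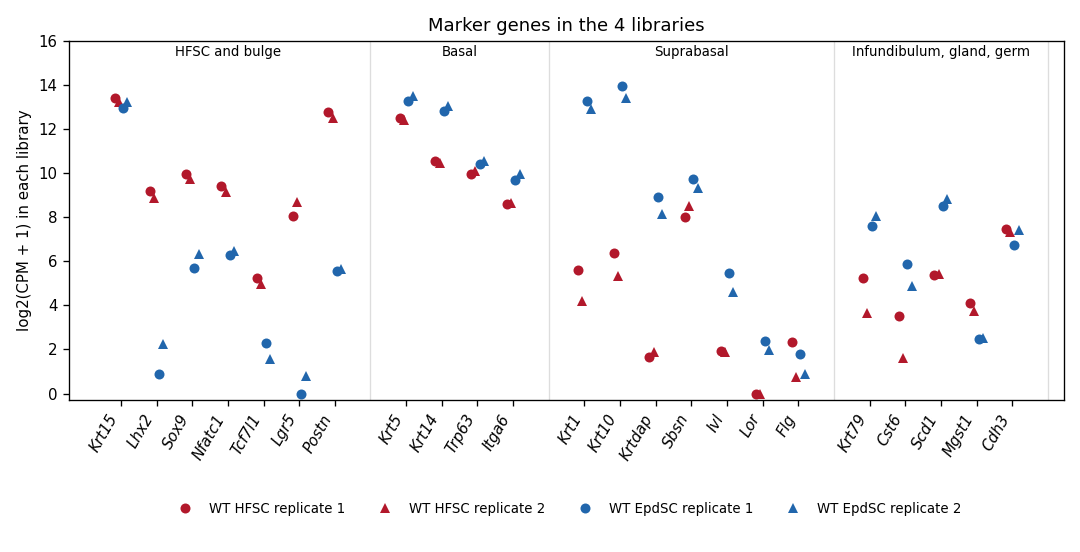
Marker genes in each library as log2(CPM + 1), with HFSC libraries in red, EpdSC libraries in blue, circles for replicate 1 and triangles for replicate 2. Lhx2, Sox9, Nfatc1, Tcf7l1, Lgr5 and Postn are high in both HFSC libraries, Krt1, Krt10 and Krtdap are high in both EpdSC libraries, and the 4 values of Krt15 lie together.

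Of 15 bulge transcription factors tested, 11 were called higher in HFSCs and 0 lower, with a median log2 fold change of 2.69. Sox9, which specifies the follicle lineage and holds HFSCs in place, had 988 and 859.5 CPM in HFSCs and 51.0 and 78.6 CPM in EpdSCs (log2 fold change 3.84, SE 0.22). Nfatc1, a mediator of bulge quiescence, had 681 and 566 CPM against 75.9 and 88.0 CPM (log2 fold change 2.91, SE 0.17). Both factors were also present in EpdSCs well above the level of 3 counts. Tcf7l1, a transcriptional repressor of Wnt target genes in the bulge, had 36.2 and 30.7 CPM in HFSCs and 3.89 and 1.99 CPM in EpdSCs. Foxc1, a forkhead factor that guards HFSC quiescence, had 255 and 416 CPM against 17.8 and 32.0 CPM (log2 fold change 3.71, adjusted p = 2.49e-05). Nfib, a factor that restrains melanocyte activation from the bulge, stood at 3381 and 3100.3 CPM against 538 and 741 CPM. Runx1, Tcf7l2, Foxp1, Vdr and Barx2 were called with log2 fold changes from 1.22 for Barx2 to 3.08 for Runx1. Nfix, Hopx, Gata6 and Msx2 were not called, and Nfix had 1162 and 1044 CPM in HFSCs and 970.5 and 1245 CPM in EpdSCs.

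The surface, keratin and secreted markers of the bulge separated the groups further, with 15 of 17 tested called higher in HFSCs, 0 lower and a median log2 fold change of 4.39. Angptl7, a secreted angiopoietin-like protein, had 2019 and 1254 CPM in HFSCs and 1.30 and 2.18 CPM in EpdSCs (log2 fold change 9.20, SE 0.27, adjusted p = 2.80e-07). Lgr5, the R-spondin receptor of the lower bulge and hair germ, had 261 and 413 CPM in HFSCs and 0 and 0.759 CPM in EpdSCs (log2 fold change 7.96, SE 0.36, adjusted p = 1.49e-06). In EpdSCs neither exceeded 2.18 CPM. Postn, which encodes the matricellular protein periostin, lies on chromosome 3 from 54361109 to 54391037 and stood at 7001 and 5725 CPM in HFSCs against 45.6 and 48.8 CPM in EpdSCs (log2 fold change 7.04, SE 0.17, adjusted p = 1.64e-07). Cd200, a surface glycoprotein of bulge cells, had 149 and 111 CPM against 7.90 and 3.32 CPM. Krt24 had 33.7 and 41.6 CPM against 0.865 and 2.56 CPM. These markers too lay well apart in every library. S100a4, a calcium-binding protein, had 111 and 134 CPM against 1.08 and 1.61 CPM. Krt15 and the chemokine Cxcl14 were the members not called.

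Hair germ genes were mixed, with 4 of 7 tested higher in HFSCs and 2 lower. Besides Lgr5, the hair differentiation factors Hoxc13 (4.44), Dlx3 (2.86) and Trps1 (2.74) had positive log2 fold changes past the threshold. Foxn1, a factor that promotes keratinocyte differentiation in hair and epidermis, had 1.24 and 0.682 CPM in HFSCs and 45.6 and 24.2 CPM in EpdSCs (log2 fold change -4.14). Cdh3, the P-cadherin of the hair germ, had 174 and 161 CPM and 107 and 169 CPM, overlapping values that were not called and whose sign turned without EpdSC replicate 1. Of 6 genes of the companion layer and inner bulge tested, 2 were higher and 2 lower. Krt6a, a keratin of the inner bulge and of stressed epidermis, had 292 and 697 CPM in HFSCs and 17.1 and 5.18 CPM in EpdSCs (log2 fold change 5.42), but it shares long identical stretches with Krt6b, the other gene called higher, and the split of reads between them is uncertain. Krt79, a keratin of the infundibulum and upper follicle, had 37.2 and 11.6 CPM and 195 and 265 CPM (log2 fold change -3.38). The lower count of this list was 1 without EpdSC replicate 1 or HFSC replicate 1.

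Some genes with a large signal in one cell type had a row only in that cell type's table and were left out of every test. The EpdSC table holds fewer genes, and the lowest maximum of any gene in it was 10.11 deposited units, while 519 genes of the HFSC table were at 0 in its 4 libraries. Of the nuclear protein-coding genes, 3939 had a row in the HFSC table only, and 25 of these averaged at least 100 CPM. Il31ra, a cytokine receptor chain, had 1561 and 1042 CPM in the HFSC libraries. Tbx1, a T-box factor of HFSC self-renewal, had 289 and 384 CPM, and Col6a2, a collagen VI chain, 239.7 and 177 CPM. Of 894 genes with a row in the EpdSC table only, 2 averaged at least 100 CPM. These were Il20ra, a receptor chain for cytokines of the IL-20 family, at 104 and 138 CPM, and Lama1, a laminin chain, at 140.3 and 88.7 CPM. For these genes the other cell type was not analysed here, so no fold change is given.

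Suprabasal genes were lower in HFSCs almost throughout, with 13 of 14 tested called lower, 0 higher and a median log2 fold change of -4.33, against -0.03 over all genes. Krtdap, a secreted peptide of differentiating keratinocytes, had 2.17 and 2.73 CPM in HFSCs and 485 and 278 CPM in EpdSCs (log2 fold change -6.74, SE 0.29, adjusted p = 1.15e-06). Calm5, a calmodulin-like skin protein, had 1.24 and 0 CPM against 111 and 121 CPM. Serpinb2, a serine protease inhibitor, had 11.2 and 11.6 CPM against 299 and 283 CPM (log2 fold change -4.56). In each the highest HFSC library lay far under the lowest EpdSC library. Dmkn and Sbsn, secreted proteins whose genes neighbour Krtdap, differed less. Sbsn had 259 and 358 CPM in HFSCs and 855 and 644 CPM in EpdSCs (log2 fold change -1.28), and Dmkn had 217.97 and 189 CPM and 706 and 506 CPM (log2 fold change -1.55). Mal2 was the member not called.

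The 250 bases before the start of 4 suprabasal genes are given because they hold short promoter motifs. Sequences are from RefSeq promoters of GRCm38.p6, 5′ to 3′ on the gene's strand. Capitals mark the TATA box TATAAA and TGANTCA, a loose form of the AP-1 motif with any middle base N, searched on both strands.
Krt10, minus strand, chr11:99389365-99389614: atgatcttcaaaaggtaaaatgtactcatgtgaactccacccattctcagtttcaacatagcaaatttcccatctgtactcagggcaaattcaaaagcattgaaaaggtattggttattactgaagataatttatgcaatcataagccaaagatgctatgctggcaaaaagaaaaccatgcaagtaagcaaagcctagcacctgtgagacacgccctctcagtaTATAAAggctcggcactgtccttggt
Krtdap, plus strand, chr7:30787655-30787904: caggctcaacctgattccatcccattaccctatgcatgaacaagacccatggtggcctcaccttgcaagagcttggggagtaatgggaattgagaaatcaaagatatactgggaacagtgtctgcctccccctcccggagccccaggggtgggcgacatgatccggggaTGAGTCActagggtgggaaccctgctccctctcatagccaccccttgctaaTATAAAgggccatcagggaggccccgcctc
Sbsn, plus strand, chr7:30751221-30751470: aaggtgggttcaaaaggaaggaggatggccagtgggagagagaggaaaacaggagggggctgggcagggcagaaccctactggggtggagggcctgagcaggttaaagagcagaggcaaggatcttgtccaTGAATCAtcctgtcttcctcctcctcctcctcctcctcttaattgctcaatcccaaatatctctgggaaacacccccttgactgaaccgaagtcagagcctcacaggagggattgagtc
Dmkn, 1 of 3 RefSeq starts, plus strand, chr7:30776155-30776404: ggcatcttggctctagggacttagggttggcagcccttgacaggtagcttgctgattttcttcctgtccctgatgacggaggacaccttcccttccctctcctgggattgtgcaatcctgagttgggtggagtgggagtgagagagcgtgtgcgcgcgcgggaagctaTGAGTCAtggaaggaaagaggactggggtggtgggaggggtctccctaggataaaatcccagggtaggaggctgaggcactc
Krt10 and Krtdap held TATAAA beginning 26 and 30 bases before the start. Krtdap, Sbsn and Dmkn, which lie within 1 stretch of chromosome 7, held TGANTCA at 81, 119 and 82 bases before it. Of the 14 suprabasal genes tested, 10 matched RefSeq promoters, 13 in all. TGANTCA stood in 7 of these 13 promoters, on 4 genes (the 3 neighbours and Serpinb2). It read TGAGTCA in Krtdap and Dmkn and TGAATCA in Sbsn and Serpinb2. Over all 12120 promoters of the 9469 genes tested that matched, 4.46% held TGANTCA and 6.44% held TATAAA. Promoters of genes called lower in HFSCs held TGANTCA in 5.69% of cases and those of genes called higher in 3.98%. A match to these letters is a description and shows no binding.

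Cornified envelope and granular layer genes included exceptions. Of 15 tested, 9 were lower in HFSCs, 2 higher and 4 not called, with a median log2 fold change of -2.18. The count of lower genes dropped to 4 without EpdSC replicate 1. Abca12, the lipid transporter of lamellar granules, had 10.5 and 10.9 CPM in HFSCs and 336 and 239.7 CPM in EpdSCs (log2 fold change -4.60, SE 0.22). Casp14, a protease of cornification, had 3.72 and 2.73 CPM against 75.8 and 60.5 CPM, and Ivl, the envelope precursor involucrin, 2.79 and 2.73 CPM against 43.3 and 23.2 CPM. These differences were free of overlap, and both HFSC libraries lay below both EpdSC libraries for 38.1% of all genes tested. Lor, which encodes loricrin, had 0 counts in both HFSC libraries and 4.22 and 2.94 CPM in EpdSCs, and it lost its call without either EpdSC library. Flg, which encodes filaggrin, had 4.03 and 0.682 CPM and 2.49 and 0.854 CPM with overlapping groups, and its sign turned without HFSC replicate 1 or EpdSC replicate 2. Tgm5, an envelope transglutaminase, ran against the list with 444 and 471 CPM in HFSCs and 6.49 and 6.83 CPM in EpdSCs (log2 fold change 5.90, SE 0.19, adjusted p = 3.45e-07). Hrnr, which encodes hornerin, was also higher in HFSCs, at 9.91 and 13.6 CPM against 1.95 and 1.33 CPM.

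Transcription factors of epidermal differentiation were lower in HFSCs in 11 of 19 cases and higher in 2, with a median log2 fold change of -2.49. Zfp750, a p63 target that drives terminal differentiation, had 8.98 and 1.36 CPM in HFSCs and 297 and 193 CPM in EpdSCs (log2 fold change -5.63, SE 0.56). Grhl3, a grainyhead factor of barrier formation, had 2.48 and 1.36 CPM against 116 and 69.0 CPM. For both genes the EpdSC libraries lay far above the HFSC libraries. Tfap2c (-3.84), Cebpa (-3.56), Ovol1 (-3.34) and Hes1 (-2.63) were also called lower by their log2 fold changes. The members called higher were Id1, an inhibitor of bHLH factors, and Barx2, which stands on the bulge list too. Klf4, a differentiation factor and also an immediate early gene, had 979 and 3176 CPM in HFSCs and 1105 and 1199 CPM in EpdSCs and was called, as higher, only without HFSC replicate 1. Without HFSC replicate 1 the list had 5 genes called higher and 11 lower.

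Among 14 desmosome genes tested, 9 were lower in HFSCs and 1 higher, with a median log2 fold change of -1.48. Dsg1a, the desmoglein of upper layers, had 49.5 and 36.3 CPM in HFSCs and 2774 and 2310.3 CPM in EpdSCs (log2 fold change -5.87, SE 0.19, adjusted p = 3.45e-07). Dsg3, the desmoglein of basal cells and of the follicle, had 1328 and 1213 CPM and 365 and 500.3 CPM (log2 fold change 1.57, SE 0.20). The desmogleins thus split, with 3 of 4 lower and Dsg3 higher. Dsg1a and Dsg1b are near-identical copies between which reads could be split. Pkp1, the plakophilin of suprabasal desmosomes, had 159 and 213 CPM against 2184 and 2098 CPM. Dsp, the desmoplakin shared by all desmosomes, had 15598 and 15338 CPM in HFSCs and 16917 and 18297 CPM in EpdSCs and was not called (adjusted p = 0.698).

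Genes that hold cells to the basement membrane were more even. Of 22 hemidesmosome and basement membrane genes tested, 8 were higher in HFSCs and 2 lower, with a median log2 fold change of 0.73. Col17a1, the collagen of the hemidesmosome plaque, had 8514 and 7382 CPM in HFSCs and 4749 and 5842 CPM in EpdSCs and was not called, and Itgb4 had 1280.3 and 1231 CPM and 742 and 1107 CPM. The collagen IV chains split. Col4a1 had 151 and 117 CPM in HFSCs and 13.95 and 9.48 CPM in EpdSCs (log2 fold change 3.42), while Col4a6 had 4.33 and 2.73 CPM and 75.2 and 95.8 CPM (log2 fold change -4.27). Npnt, the nephronectin that bulge cells lay down for the arrector pili muscle, had 199 and 265 CPM against 27.3 and 28.8 CPM. Of 25 integrin and focal adhesion genes tested, 10 were higher and 1, Itga6, lower, with 2 lower without EpdSC replicate 2. Itgb8 (3.29) and Itgb6 (2.66), subunits of integrins that bind latent TGF-β, had positive log2 fold changes, as did Itga1 (2.90), a collagen receptor subunit. Actn1, an actin crosslinker of focal adhesions, had 531 and 442 CPM in HFSCs and 58.4 and 56.9 CPM in EpdSCs (log2 fold change 3.05). Itgb1, the most widely shared subunit, had 342 and 364 CPM and 169 and 250.2 CPM, stayed under the fold threshold and was called higher without EpdSC replicate 2.

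Interstitial matrix and matricellular genes formed the list with the second highest median among those with at least 6 genes tested. Of 17 tested, 15 were higher in HFSCs and 2 lower, with a median log2 fold change of 2.92, and 9 further genes of the list, Col1a2 and Col5a2 among them, had a row in the HFSC table only. Ccn2, a connective tissue growth factor induced by TGF-β and YAP, had 1598 and 6704 CPM in HFSCs and 7.79 and 6.34 CPM in EpdSCs (log2 fold change 8.67, SE 0.52, adjusted p = 4.16e-06). The HFSC libraries differed from each other here, as they did for its relative Ccn1 with 315 and 1516 CPM against 26.0 and 71.4 CPM. Tnc, which encodes tenascin C, had 198 and 266 CPM against 1.19 and 7.87 CPM, Fbln1 149 and 115 CPM against 0.757 and 2.09 CPM, and Col6a1 433 and 429.8 CPM against 12.2 and 13.1 CPM. The groups overlapped for none of these 5 genes, and both HFSC libraries lay above both EpdSC libraries for 35.1% of all genes tested. Thbs2 (-1.32) and Col16a1 (-1.08) were the members called lower by their log2 fold changes, 1 of them without HFSC replicate 1 or EpdSC replicate 2. Among 18 proteases and inhibitors of the matrix tested, 4 were higher and 6 lower, beside 13.2% and 15.5% over all genes. Timp2, a metalloprotease inhibitor, had 373 and 360.2 CPM in HFSCs and 11.7 and 18.6 CPM in EpdSCs (log2 fold change 4.54). Mmp28, the epidermal metalloprotease epilysin, had 1.24 and 0 CPM and 66.4 and 69.4 CPM (log2 fold change -5.52).

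The 250 bases before the annotated start of Postn with a TATA box are given because Postn stands on both the matrix list and the bulge list. TATAAA, in capitals, began 26 bases before the start, and a second RefSeq start of the gene held none.
Postn, plus strand, chr3:54360857-54361106: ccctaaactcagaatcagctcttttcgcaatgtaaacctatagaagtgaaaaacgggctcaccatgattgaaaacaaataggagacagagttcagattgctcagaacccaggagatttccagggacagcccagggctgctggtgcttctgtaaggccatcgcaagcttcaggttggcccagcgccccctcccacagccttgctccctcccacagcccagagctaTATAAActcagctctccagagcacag
TATAAA stood in 6 of 17 promoters of the matrix list, on 5 of the 13 genes that matched.

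**Figure D3:**
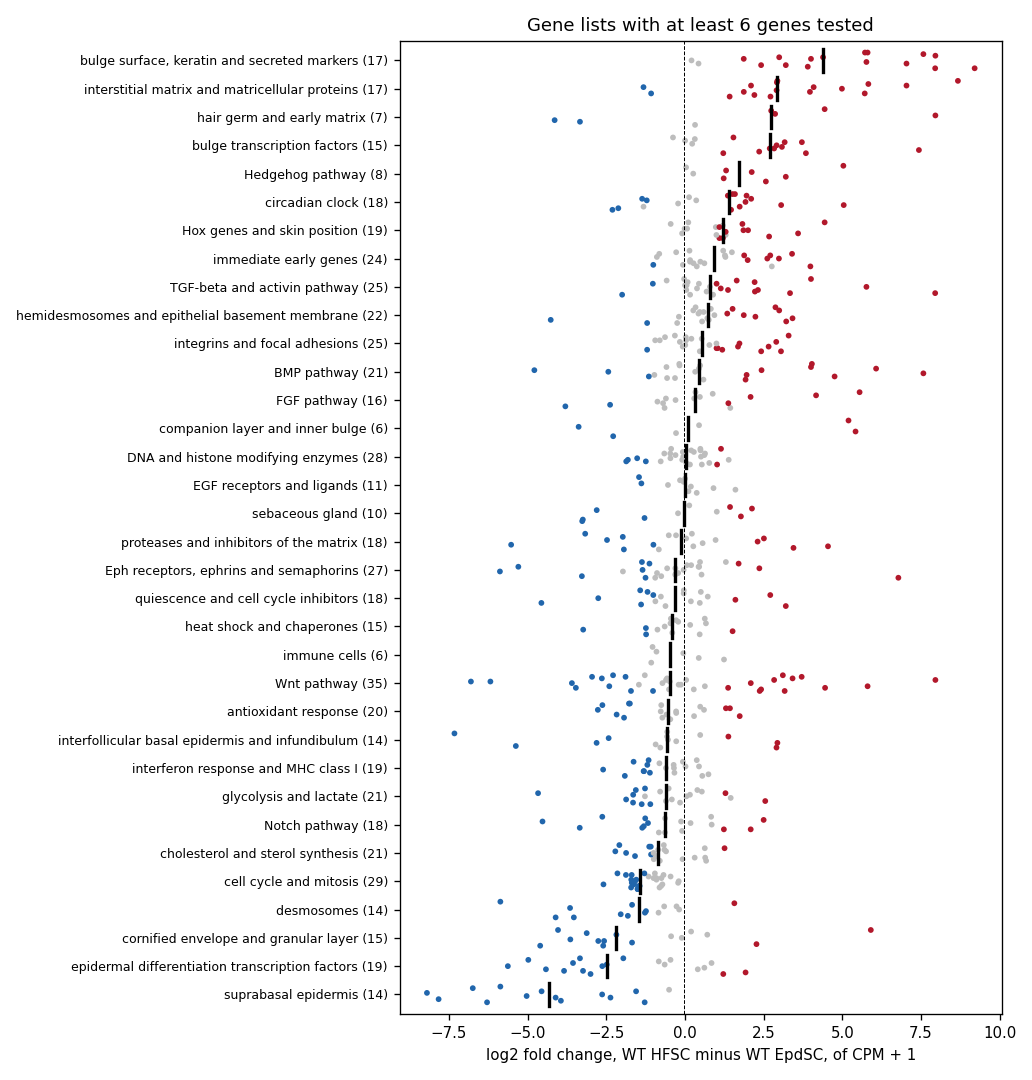
Log2 fold changes, HFSC minus EpdSC on the CPM + 1 scale, of the genes of each list with at least 6 genes tested, with red for called higher, blue for called lower, grey for not called and a black bar at each median. The dashed line is the median of all genes tested, -0.03. Suprabasal genes lie at the low end with a median of -4.33 and bulge surface, keratin and secreted markers at the high end with 4.39.

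In the TGF-β and activin pathway, which keeps latent ligand in the matrix until integrins or proteases free it, 11 of 25 genes tested were higher in HFSCs and 2 lower. Without EpdSC replicate 1 the counts were 7 higher and 2 lower, and without EpdSC replicate 2 or HFSC replicate 2 the lower count was 1. The largest differences were in matrix storage. Ltbp2, a latent TGF-β binding family member, had 901 and 927 CPM in HFSCs and 1.08 and 5.60 CPM in EpdSCs (log2 fold change 7.95, SE 0.43), and Ltbp1 had 652 and 606 CPM and 8.22 and 13.6 CPM (log2 fold change 5.76, SE 0.23). Of the 4 Ltbp genes, 3 were called higher. Among ligands, Tgfb3 had 49.6 and 51.1 CPM against 2.704 and 5.97 CPM (log2 fold change 3.34), while Tgfb1 (17.6 and 13.6 CPM and 19.7 and 28.6 CPM) and Tgfb2 (23.8 and 29.3 CPM and 12.1 and 18.2 CPM) were not called. The 2 main receptors differed in opposite directions. Tgfbr1 had 54.8 and 50.5 CPM in HFSCs and 21.2 and 25.8 CPM in EpdSCs (log2 fold change 1.14, not called without EpdSC replicate 1), and Tgfbr2 had 34.1 and 28.6 CPM and 113 and 144 CPM (log2 fold change -2.00, adjusted p = 0.000101). Smad7, an inhibitory Smad and a target of the pathway, had 109.9 and 88.0 CPM against 20.3 and 20.3 CPM (log2 fold change 2.22).

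BMP genes, whose signal holds bulge cells in rest, differed mainly in ligands, antagonists and Id targets. Of 21 tested, 8 were higher in HFSCs and 3 lower, beside 13.2% and 15.5% over all genes. The 3 lower came to 1, Bmp4, without EpdSC replicate 1. The secreted antagonist Grem1 had 677 and 487 CPM in HFSCs and 0.865 and 3.89 CPM in EpdSCs (log2 fold change 7.57, SE 0.40, adjusted p = 2.58e-06). Nog, which encodes noggin, had 59.8 and 57.3 CPM against 0.865 and 1.61 CPM, and Fst, the activin and BMP antagonist follistatin, 703 and 954 CPM against 37.96 and 66.2 CPM. All 3 antagonists were higher in HFSCs without overlap, a separation in this direction that 35.1% of all genes tested had. The ligand Bmp4 had 1.24 and 1.36 CPM in HFSCs and 57.2 and 68.3 CPM in EpdSCs (log2 fold change -4.79, SE 0.34), and Bmp2 had 19.2 and 25.9 CPM and 19.5 and 33.2 CPM. The Id genes, direct BMP targets, were all called higher, 4 of 4. Id2 had 198 and 519.8 CPM in HFSCs and 2.81 and 5.03 CPM in EpdSCs (log2 fold change 6.07), and Id4 171 and 309.6 CPM against 9.63 and 17.8 CPM. The receptor Bmpr1a, at 145 and 138 CPM and 163 and 155 CPM, was not called.

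Wnt genes split by role. Wnt ligands signal to frizzled receptors, Lrp co-receptors raise β-catenin, and Lgr receptors bind R-spondins that amplify the signal. Of 35 genes of the pathway tested, 12 were higher in HFSCs and 11 lower. Among the 10 ligands tested, 7 were lower in HFSCs and 0 higher. Wnt3 had 0.310 and 0.682 CPM in HFSCs and 176 and 154 CPM in EpdSCs (log2 fold change -6.80, SE 0.31, adjusted p = 1.49e-06), and Wnt4 had 32.7 and 40.8 CPM and 130.1 and 147 CPM (log2 fold change -1.89). Wnt10a (11.5 and 24.6 CPM and 83.1 and 105 CPM), Wnt7b, Wnt5a, Wnt3a and Wnt6 were the others called. Wnt16 and Wnt10b, with 18.8 and 24.3 CPM and 13.7 and 12.8 CPM, had a row in the EpdSC table only. Receptors ran mostly the other way, with 5 of 8 frizzled genes higher and 1 lower. Fzd7 had 572 and 496 CPM in HFSCs and 46.7 and 51.3 CPM in EpdSCs (log2 fold change 3.42, SE 0.17), and Fzd2 272 and 186 CPM against 9.41 and 9.29 CPM. Fzd10 was the exception, with 2.48 and 0 CPM in HFSCs and 133 and 136 CPM in EpdSCs (log2 fold change -6.18). The secreted modulators Dkk3 (700.0 and 486 CPM and 7.35 and 12.1 CPM) and Sfrp1 were higher in HFSCs, and Ctnnb1, which encodes β-catenin, was not called at 379.7 and 408 CPM and 382 and 386 CPM. Axin2, a general target of the pathway, had 173 and 132 CPM in HFSCs and 290.4 and 324 CPM in EpdSCs (log2 fold change -1.02, adjusted p = 0.00215), and lost its call without HFSC replicate 2 or EpdSC replicate 2, as Wnt6 did without EpdSC replicate 1.

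Hedgehog pathway genes were higher in HFSCs in 6 of 8 cases tested and lower in 0. Gli2, an activator of Hedgehog targets, had 193 and 160.3 CPM in HFSCs and 5.62 and 3.41 CPM in EpdSCs (log2 fold change 5.03, SE 0.28). The co-receptors Gas1 (319 and 549 CPM and 43.1 and 46.0 CPM), Boc (476 and 396 CPM and 62.3 and 83.9 CPM) and Cdon (165 and 156 CPM and 53.4 and 77.3 CPM) were all higher. The receptor and target Ptch1 differed less, with 112 and 108 CPM and 42.8 and 50.3 CPM, and the transducer Smo was not called at 129 and 128 CPM and 113 and 138 CPM. Gli1, a further target, had 81.7 and 69.6 CPM in HFSCs and no row in the EpdSC table.

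**Figure D4:**
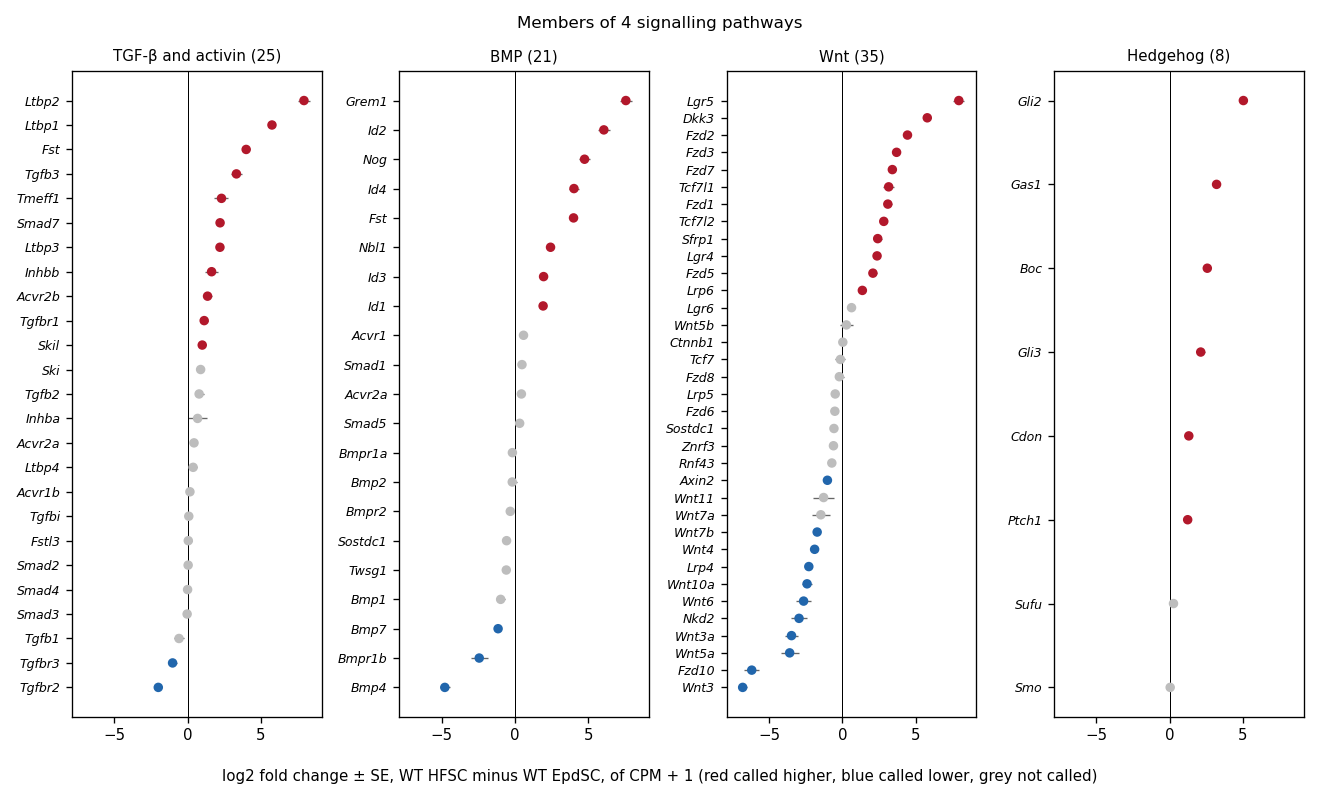
Log2 fold changes with their standard errors, HFSC minus EpdSC on the CPM + 1 scale, for the genes tested of 4 signalling pathways (25 of TGF-β and activin, 21 of BMP, 35 of Wnt and 8 of Hedgehog). Red is called higher in HFSCs, blue called lower and grey not called. Wnt3, Fzd10 and Wnt5a stand at the low end of the Wnt panel and Lgr5, Dkk3 and Fzd2 at the high end.

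Genes of other growth factor families were called in both directions. Fgfr1 had 1176 and 1004 CPM in HFSCs and 48.6 and 73.3 CPM in EpdSCs (log2 fold change 4.16, SE 0.21), while Fgfr2 (375 and 378 CPM and 560.5 and 854 CPM) stayed under the fold threshold in the other direction and was called lower without EpdSC replicate 1. Fgf1, a broad FGF ligand, had 137 and 94.8 CPM against 0.541 and 2.94 CPM, and Fgfbp1, a carrier that frees FGFs from the matrix, had 9.91 and 10.9 CPM against 172 and 145 CPM (log2 fold change -3.80). Of 16 FGF genes tested, 4 were higher and 2 lower, beside 13.2% and 15.5% over all genes. Their lower count was 1 without EpdSC replicate 2 or HFSC replicate 2. The share of FGF genes called lower was no larger than that over all genes. Of 11 EGF receptor and ligand genes tested, 0 were higher and 2 lower, the receptors Erbb2 (128 and 109.8 CPM and 359 and 302 CPM) and Erbb3 (146 and 104 CPM and 312 and 336 CPM), beside 15.5% called lower over all genes, and 1 was higher without either HFSC replicate. Of 18 Notch genes tested, 3 were higher and 7 lower. The ligand Jag1 had 602 and 609 CPM in HFSCs and 130.0 and 154 CPM in EpdSCs (log2 fold change 2.09), and the receptor Notch3 had 7.97 and 10.9 CPM and 298 and 189 CPM (log2 fold change -4.53). Notch1, which drives the switch to suprabasal fate, was lower in HFSCs at 296 and 447 CPM against 933 and 875.8 CPM, as was the target Hes1 at 12.1 and 15.0 CPM against 90.5 and 86.4 CPM.

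Among guidance cues, 3 of 27 genes tested were higher in HFSCs and 7 lower, beside 13.2% and 15.5% over all genes. The share of guidance cues called higher was no larger than that over all genes. The class 3 semaphorins, secreted ligands of plexins and neuropilins, went both ways. Sema3e had 1084 and 606 CPM in HFSCs and 3.89 and 10.1 CPM in EpdSCs (log2 fold change 6.78, SE 0.38). Sema3d had 5.88 and 2.73 CPM against 251 and 353 CPM (log2 fold change -5.88, SE 0.32) and Sema3f 4.33 and 5.46 CPM against 232 and 227 CPM. The ephrin genes Efna5 (2.36) and Efnb2 (1.70) had positive log2 fold changes. Hox genes, which record body position, were called higher in HFSCs in 10 of 19 cases and lower in 0, with 6 higher without EpdSC replicate 1. By cluster, 6 of 8 Hoxb genes, 3 of 5 Hoxc genes and 1 of 6 Hoxa genes were called. The Hoxb count was 3 without EpdSC replicate 1 and 4 without HFSC replicate 1, and the Hoxa count was 0 without HFSC replicate 1 or either EpdSC replicate and 2 without HFSC replicate 2. Hoxb4 had 79.0 and 131 CPM in HFSCs and 13.8 and 16.5 CPM in EpdSCs, and Hoxc8 60.4 and 63.4 CPM and 14.5 and 14.9 CPM.

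Cell cycle genes were lower in HFSCs, with 15 of 29 tested called lower, 0 higher and a median log2 fold change of -1.44. The count was 8 without EpdSC replicate 1 and 7 without EpdSC replicate 2. Mki67, the proliferation marker, had 58.8 and 82.5 CPM in HFSCs and 251 and 206 CPM in EpdSCs (log2 fold change -1.69, SE 0.21, adjusted p = 0.000261). Mcm2, a replication helicase subunit, had 23.5 and 15.0 CPM against 55.1 and 73.8 CPM, and Pcna, the replication clamp, 16.8 and 18.8 CPM against 47.1 and 58.4 CPM. All 3 were free of overlap, and both HFSC libraries lay below both EpdSC libraries for 38.1% of all genes tested. Ccnb1, a mitotic cyclin close to the floor of 3 counts in HFSCs, had 3.82 and 1.36 CPM and 8.47 and 8.16 CPM and lost its call without HFSC replicate 2 or either EpdSC replicate. Of 18 quiescence and inhibitor genes tested, 3 were higher and 6 lower, beside 13.2% and 15.5% over all genes. Cdkn1a, which encodes the p21 inhibitor that also rises in differentiating keratinocytes, had 3.72 and 10.2 CPM in HFSCs and 202 and 145 CPM in EpdSCs (log2 fold change -4.56, SE 0.38). Foxo3, a forkhead factor of stem cell rest, had 419.9 and 427 CPM and 138 and 140.3 CPM (log2 fold change 1.60, SE 0.15). Ccnd2 was lower in HFSCs at 322 and 252 CPM against 655 and 896 CPM.

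Circadian clock genes differed in 14 of 18 cases, 10 higher and 4 lower in HFSCs, with a median log2 fold change of 1.41. The core loop pairs the activators Clock and Arntl with the repressors Per and Cry. Arntl had 13.9 and 12.3 CPM in HFSCs and 80.9 and 58.2 CPM in EpdSCs (log2 fold change -2.31, SE 0.26, adjusted p = 0.000155). The repressors Per1 (539 and 590.1 CPM and 112 and 152 CPM) and Per2 (224 and 81.2 CPM and 13.7 and 17.2 CPM) were higher, with log2 fold changes of 2.10 and 3.05. Cry2 (252 and 223 CPM and 89.2 and 94.0 CPM, log2 fold change 1.36) was also higher. Clock (181 and 158 CPM and 136 and 128 CPM) and Cry1 (14.2 and 2.05 CPM and 16.7 and 15.4 CPM) were not called, so the loop did not split by role throughout. The output factors Dbp (1.92) and Tef (1.96) had positive log2 fold changes and their relative Hlf a negative one (-2.12). Bhlhe41 had 133 and 59.1 CPM in HFSCs and 0.649 and 3.48 CPM in EpdSCs (log2 fold change 5.04), while its paralog Bhlhe40 had 56.3 and 29.3 CPM and 81.4 and 138 CPM (log2 fold change -1.36). Bhlhe40 lost its call without HFSC replicate 2 or EpdSC replicate 2, and Ciart without HFSC replicate 1 or EpdSC replicate 1, while Cry1 was called lower without HFSC replicate 1. The times of day of collection were not given in the sources used here, and their part in these values was not tested.

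The CACGTG E-box, the core site of Clock and Arntl, stood in 6 of 20 promoters of the clock list, on 5 of the 15 genes that matched (Bhlhe41, Ciart, Cry1, Per1 and Tef), and in 8.28% of all promoters of genes tested. Of these 5, Cry1 was not called and the other 4 were higher in HFSCs, where 10 of the 18 clock genes tested were called higher. Promoters of genes called higher in HFSCs held CACGTG in 7.27% of cases and those of genes called lower in 8.35%. The 250 bases before 2 of them are given, with CACGTG in capitals.
Ciart, minus strand, chr3:95882229-95882478: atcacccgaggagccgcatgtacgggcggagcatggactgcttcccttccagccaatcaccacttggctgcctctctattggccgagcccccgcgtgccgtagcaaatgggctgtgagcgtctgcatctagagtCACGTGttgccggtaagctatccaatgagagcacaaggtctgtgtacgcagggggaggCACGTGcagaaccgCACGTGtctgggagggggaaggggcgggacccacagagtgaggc
Per1, plus strand, chr11:69098699-69098948: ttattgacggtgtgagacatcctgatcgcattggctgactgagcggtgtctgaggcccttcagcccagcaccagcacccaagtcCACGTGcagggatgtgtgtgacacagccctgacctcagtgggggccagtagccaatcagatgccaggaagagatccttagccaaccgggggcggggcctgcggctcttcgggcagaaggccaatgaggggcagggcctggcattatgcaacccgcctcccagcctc
Ciart held CACGTG at 116, 58 and 44 bases before the start, and Per1 at 166, while a second RefSeq start of Per1 held none.

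Immediate early genes, which respond to dissociation and stress within minutes, depended on single libraries. Of 24 tested, 7 were called higher in HFSCs and 1 lower. HFSC replicate 2 stood far above HFSC replicate 1 for Fos, with 126 and 1823 CPM in HFSC replicates 1 and 2 and 95.2 and 305 CPM in EpdSC replicates 1 and 2. The same order held for Fosb, with 256 and 1715 CPM and 37.96 and 179.6 CPM, and for Nr4a1, with 42.7 and 465 CPM and 6.27 and 24.1 CPM. Fos was called higher without HFSC replicate 1, and Fosb and Nr4a1 lost their calls without HFSC replicate 2 or EpdSC replicate 1. The calls numbered 18 higher and 0 lower without HFSC replicate 1, 4 and 3 without HFSC replicate 2, 2 and 1 without EpdSC replicate 1, and 5 and 0 without EpdSC replicate 2. Ier3, an apoptosis regulator, was steadier, with 49.8 and 58.7 CPM in HFSCs and 2.60 and 2.37 CPM in EpdSCs (log2 fold change 3.98, SE 0.32). Heat shock genes were called higher in 1 of 15 cases and lower in 3, beside 13.2% and 15.5% over all genes. Their lower count ran from 1 without HFSC replicate 1 or either EpdSC replicate to 6 without HFSC replicate 2. The higher count was 2 without HFSC replicate 1. Hsp90aa1, the gene called higher, had 535 and 1512 CPM and 331 and 299.6 CPM and was not called without HFSC replicate 2 or without either EpdSC replicate.

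Metabolic and defence genes leaned lower in HFSCs, beside 13.2% called higher and 15.5% called lower over all genes. Of 21 glycolysis genes, 8 were lower and 2 higher, with 1 higher without EpdSC replicate 1. Hk2, an inducible hexokinase, had 102 and 83.2 CPM in HFSCs and 14.8 and 15.0 CPM in EpdSCs (log2 fold change 2.55, SE 0.22), whereas the glucose transporter Slc2a1 had 51.1 and 47.8 CPM and 143 and 173 CPM (log2 fold change -1.65) and Ldha 68.4 and 78.2 CPM and 209 and 228 CPM (log2 fold change -1.56). Eno1, Gapdh and Pgk1 were also lower but share reads with pseudogenes or copies, so their values are uncertain. Of 21 cholesterol synthesis genes, 7 were lower and 1 higher. The lower count was 2 without EpdSC replicate 1, 4 without EpdSC replicate 2 or HFSC replicate 1, and 11 without HFSC replicate 2, and the higher count was 0 without HFSC replicate 2 or either EpdSC replicate. Without EpdSC replicate 1 or HFSC replicate 1 the share of cholesterol synthesis genes called lower was near that over all genes. Fdps, an isoprenoid synthase, had 14.01 and 10.7 CPM against 67.9 and 53.9 CPM. Of 20 antioxidant genes, 6 were lower and 3 higher, with 1 higher without HFSC replicate 2. Gpx4, which repairs lipid peroxides, had 6.51 and 3.66 CPM against 36.2 and 42.8 CPM. Among 19 interferon and MHC class I genes, 8 were lower and 0 higher, with 4 lower without EpdSC replicate 1 or HFSC replicate 2. B2m, the invariant MHC class I chain, had 228 and 171 CPM in HFSCs and 863 and 644 CPM in EpdSCs (log2 fold change -1.91), and H2-D1 567 and 548 CPM and 1421 and 1357 CPM. Of 28 DNA and histone modifying enzymes, 2 were higher (1 without HFSC replicate 1) and 4 lower, with a median log2 fold change of 0.02. For these enzymes neither share exceeded that over all genes. Uhrf1, a maintenance methylation factor of dividing cells, had 13.9 and 8.55 CPM against 38.8 and 46.6 CPM.

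Basal epidermal and infundibular genes did not form a single pattern, with 3 of 14 tested higher in HFSCs and 4 lower. Over all genes 13.2% were called higher and 15.5% lower. Without HFSC replicate 1 the list had 5 each way. Krt77, a type II keratin of the epidermis, had 56.4 and 28.6 CPM in HFSCs and 9056 and 4833 CPM in EpdSCs (log2 fold change -7.33, SE 0.35). Its fold change lay nearer to those of the suprabasal Krt1 and Krt10 than to that of the basal Krt14. Cst6, a protease inhibitor of the infundibulum and upper layers, had 10.5 and 2.05 CPM and 58.0 and 28.3 CPM (log2 fold change -2.81, not called without EpdSC replicate 1). Aqp3, a water and glycerol channel, had 969 and 745 CPM against 120.3 and 105 CPM (log2 fold change 2.91), and Thbs1 699.6 and 809.6 CPM against 69.8 and 136 CPM. Lrig1, a marker of the junctional zone, had 160.1 and 128 CPM and 187 and 232 CPM and stayed under the fold threshold.

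Few markers of other cells had a row in both tables. Of 13 fibroblast markers, 1, Vim, was tested, at 22.3 and 6.82 CPM in HFSCs and 23.7 and 1.90 CPM in EpdSCs, higher in replicate 1 of both cell types. A further 5 had a row in the HFSC table only, Col1a2 among them at 74.9 and 87.3 CPM. Pecam1, an endothelial marker, had 10.5 and 8.29 CPM against 0.865 and 0.474 CPM and was called, and Cspg4, a proteoglycan on the list for pericytes, had 805 and 729 CPM against 51.5 and 82.9 CPM. Of 6 immune markers tested, 0 were called in either direction by limma, edgeR or DESeq2, with a median log2 fold change of -0.48, but 1 was higher without EpdSC replicate 1 (median 0.65) and 1 lower without EpdSC replicate 2 (median -1.34). Cd74, of antigen-presenting cells, had 10.8 and 3.41 CPM and 37.3 and 3.79 CPM, again higher in replicate 1 of both cell types, and was the marker called lower in HFSCs without EpdSC replicate 2. Mitf, a regulator of the melanocyte lineage, was higher in HFSCs at 413 and 393 CPM against 11.1 and 17.4 CPM, while Dct, a defining melanocyte enzyme, had 24.5 and 43.0 CPM in HFSCs and no row in the EpdSC table. The part of melanocyte RNA in the Mitf value was not tested. None of the muscle or erythrocyte markers had a row in both tables. Sebaceous genes were mixed, with 3 of 10 higher and 4 lower, and 1 higher without EpdSC replicate 2. Scd1, a fatty acid desaturase, had 40.9 and 41.6 CPM in HFSCs and 358 and 446 CPM in EpdSCs (log2 fold change -3.25), and Mgst1 16.4 and 12.3 CPM against 4.54 and 4.74 CPM, with no call without either EpdSC replicate.

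Taken by size alone, the 12 largest log2 fold changes on each side, among called genes without overlap and with at least 100 CPM in the higher group, held several genes already described. On the HFSC side these were Angptl7, Ccn2, Lgr5, Ltbp2 and Grem1, and on the EpdSC side Krt1, Krt10, Krt77, Wnt3 and Krtdap. Shisa2, an inhibitor of Wnt and FGF receptor maturation, had 303 and 349 CPM in HFSCs and 1.30 and 0 CPM in EpdSCs. Trabd2b, a protease that inactivates Wnt ligands, had 439 and 508 CPM against 1.08 and 1.71 CPM. Gfra1, a receptor for GDNF, had 287 and 259 CPM against 0.216 and 0.569 CPM. None of the 3 exceeded 1.71 CPM in an EpdSC library. On the other side Calm4, a calmodulin-like protein of differentiating keratinocytes, had 4.33 and 5.46 CPM in HFSCs and 661 and 435 CPM in EpdSCs, Tmprss4, a membrane serine protease, 2.27 and 0.682 CPM and 257 and 169.9 CPM, and Ly6d, a GPI-anchored surface protein, 5.57 and 2.05 CPM and 448 and 315 CPM. Cpxm2 had 1.24 and 0.682 CPM and 205 and 133 CPM, and Oas1f 1.24 and 0 CPM and 149 and 132 CPM. Oas1f belongs to a cluster of similar Oas1 genes. The rest were predicted genes or genes with many copies. Gm10800, at 16061 and 24104 CPM in HFSCs and 3.14 and 8.45 CPM in EpdSCs, Gm10801, Gm21738 and Gm10718 were higher, and Gm5148 and Rps2 lower. Reads of repeated sequence can be split or assigned differently between the tables, and these values are uncertain.

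Fold changes moved with gene length. Among the 11735 genes with an exon length in GENCODE M21, the 1174 with the shortest exons, up to 1903 bp, had a median log2 fold change of -0.74, and the 1174 with the longest, from 10150 bp, a median of 0.47. Genes called lower made up 35.3% of the shortest set and 6.98% of the longest, and genes called higher 5.62% and 24.4%. When each library was shifted to equal medians within 20 bins of exon length, a setting chosen after the values were seen, 1659 genes were higher and 1354 lower. Under this setting the median log2 fold change was 4.64 for bulge surface, keratin and secreted markers, -4.13 for suprabasal genes and -1.14 for cell cycle genes, and the genes called lower numbered 3 for interferon and MHC class I genes and 1 for heat shock genes.

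**Figure D5:**
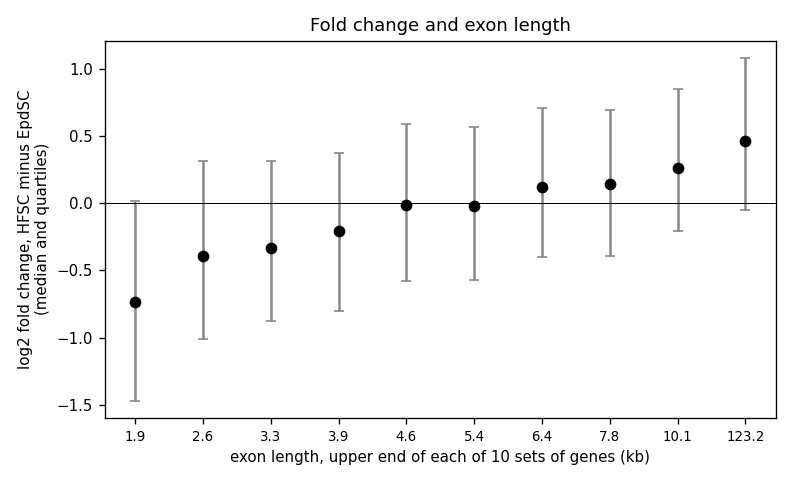
Log2 fold change, HFSC minus EpdSC on the CPM + 1 scale, in 10 sets of the 11735 genes with an exon length, ordered from the shortest on the left and labelled with the longest exon length of each set in kb. Points are medians and bars run from the lower to the upper quartile. The median climbs from -0.74 in the shortest set to 0.47 in the longest.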

How the data were processed

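Sorted dorsal skin cells were sequenced by the study, and the submitters' processing notes name STAR 2.7.3a, Partek Flow and mm10. The deposited HFSC table holds estimated counts per gene. The deposited EpdSC table holds a signal, estimated counts divided by 1 factor per library (1 count is 1.08 and 0.948 units, by which 72.8% to 73.2% of values under 1000 came within 0.01 of whole counts), with low genes left out. Deposited tables of the authors' own comparisons (fold changes and p-values) were not used. Strand use in counting and the EpdSC filter are not given in the sources used here.

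Scaling to CPM over nuclear protein-coding genes found in both tables cancels a factor per library. Total counts were 4.32 M and 3.13 M (M, 1000000) in HFSC and 15.2 M and 15.48 M in EpdSC libraries. Genes with at least 1 CPM in at least 2 libraries were tested by limma 3.58.1 with an intensity trend on log2(CPM + 1), in R 4.3.3, with a script tested on simulated data. Alternatives were edgeR 4.0.16 and DESeq2 1.42.0 on rounded counts, other pseudocounts, filters, scalings, biotypes and priors, a replicate block and each library left out. Promoters came from RefSeq (GRCm38.p6) for 9469 of the 11900 genes tested, and other coordinates are those of the files (GRCm38).

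The cell types, 41 gene lists (765 genes) and tests were chosen with earlier results of these data known. Named genes (226) were the markers and up to 5 called members of each list in each direction with the largest fold changes. Also named were the 12 largest fold changes each way among called genes without overlap and with at least 100 CPM in the higher group. Other list members were named after their values were seen.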

Additional observations from a re-analysis of the deposited data

How the results depend on the processing

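Calls numbered 1567 higher and 1843 lower in HFSCs. With a pseudocount of 10 CPM they numbered 970 and 1170. Leaving out each library in turn gave 1048 to 1616 higher and 1126 to 2141 lower, the lowest of both without EpdSC replicate 1. Under the other alternatives the counts stayed within 1.5 times of 1567 and 1843. Scaling over all genes of any biotype found in both tables kept 2186 of the 3410 calls (64.1%), and TMM factors kept 98.7%. Of the named genes that were called, 189 to 209 kept their call when a library was left out, and 193 with a pseudocount of 10 CPM. No alternative called a gene in the opposite direction. For genes named without a call the sign of the log2 fold change depended on the library left out, with ranges for Bmp2 from -0.55 to 0.19, Cd74 from -2.41 to 0.59, Cdh3 from -0.0099 to 0.65, Ctnnb1 from -0.0155 to 0.0869, Cxcl14 from -0.0015 to 0.86, Ddx3y from -0.0494 to 5.89, Flg from -0.60 to 0.98, Fos from -0.43 to 3.41, Gata6 from -1.02 to 0.26, Klf4 from -0.23 to 1.46, Msx2 from -0.48 to 1.11, Nfix from -0.18 to 0.18, Smo from -0.11 to 0.18 and Vim from -0.87 to 2.22. The sign also turned with equal medians within 20 bins of exon length (Bmp2 0.0683, Clock -0.17, Flg -0.34, Nfix -0.18, Smo -0.0859), with scaling over any biotype (Ctnnb1 -0.0552, Nfix -0.0892, Smo -0.0558), and with a sum that leaves out the 50 genes with the highest mean CPM (Nfix -0.0073). The causes were not tested. Deviations of same-numbered libraries from their group means correlated at 0.0647 across the 11900 genes tested. With 2 libraries per group this value cannot show whether replicate numbers pair the samples. The fit with a replicate block called 1613 genes higher and 1874 lower. HFSC replicate 2, with 1.47 M counts (M, 1000000) on shared genes, limits what can be seen at low levels, since 3 counts there are 2.05 CPM.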

Other observations

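Several families of housekeeping genes, picked after the values were seen, were lower in HFSCs. Of 81 cytosolic ribosomal protein genes, 67 were called lower and 0 higher, with a median log2 fold change of -1.99. Of 78 mitochondrial ribosomal protein genes, 31 were lower and 0 higher, with a median of -0.81, and the lower count was 4 without EpdSC replicate 1 and 14 without EpdSC replicate 2. Of 47 Nduf genes, which encode subunits of respiratory complex I, 23 were lower and 1 higher. The lower count was 11 without EpdSC replicate 1 and 14 without EpdSC replicate 2, and the higher count was 0 without any 1 of the 4 libraries. Of 37 Psm genes, which encode proteasome subunits, 16 were lower and 0 higher, with 10 lower without EpdSC replicate 1. Of 57 histone genes, 48 were lower and 0 higher, with a median of -2.31. Over all 11900 genes tested 15.5% were called lower. With EpdSC replicate 1 left out, the share of mitochondrial ribosomal protein genes called lower was below the share over all genes.

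These families differed in how far their counts moved when each library was shifted to equal medians within 20 bins of exon length. Cytosolic ribosomal protein genes, with a median exon length of 1830 bp, then had 53 of 81 lower and a median log2 fold change of -1.49. Mitochondrial ribosomal protein genes (2394 bp) had 9 lower and 1 higher, Nduf genes (1569 bp) 6 lower and 2 higher, and Psm genes (2820 bp) 9 lower and 0 higher. Over all 11735 genes with an exon length, 1354 were lower and 1659 higher under this setting. The shares of mitochondrial ribosomal protein and Nduf genes called lower were near the share over all genes. Exon lengths were found for 3.51% of the histone genes, so a check of length on them is void.

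Zinc finger genes named Zfp stood on the other side, with 57 of 312 called higher, 11 lower and a median log2 fold change of 0.34, beside 13.2% called higher over all genes. With either EpdSC replicate left out, the share called higher was no larger than the share over all genes. The counts were 27 higher and 5 lower without EpdSC replicate 1, 34 and 6 without EpdSC replicate 2, and the lower count was 19 without HFSC replicate 2. Of 257 genes for which the annotation names a processed pseudogene, 98 were lower and 10 higher, with a median of -0.74. Reads of such genes can be split with their copies.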
